A study of Mus musculus with 18 samples.

Results

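The 4 h response to transforming growth factor β1 (TGF-β1) was measured across the transcriptome of cultured mouse bone marrow macrophages labelled Smad1 fl/fl, called floxed-labelled here. It rests on 6 of the 18 RNA sequencing libraries of the study, 3 untreated and 3 given TGF-β1, and on the 14684 of 54532 annotated genes that passed a filter on low counts. All cells of the study carried loxP-flanked Smad1 alleles. The knockout-labelled cells were described as also carrying LyzMCre, a Cre recombinase expressed from the lysozyme gene Lyz2. Both labels were studied untreated, with TGF-β1 or with BMP4.

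Marrow came from the tibia of mice aged 2 to 3 months. The first 24 h of culture were in 12 ng/ml CSF-1, in medium that held 15% serum and, as a 10% supplement, medium conditioned by WEHI-3 cells. Those that did not adhere were grown for 48 h in 120 ng/ml CSF-1, kept for about 16 h without serum, and then left alone or given 10 ng/ml TGF-β1 for 4 h. The labels number the libraries 1 to 3 in each group but do not say that they came from separate animals or cultures. A p-value here is thus set against library-to-library spread, which may be partly technical. In a bulk library, fewer cells that express a gene and less of its RNA per cell cannot be told apart.

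TGF-β1 is a secreted cytokine that brings together type II and type I receptor kinases, which phosphorylate Smad2 and Smad3. These join Smad4, enter the nucleus and act with other DNA-binding factors, and some of the genes they induce encode inhibitors of the same pathway. In macrophages the cytokine is known for restraining inflammatory activation and for changing adhesion, migration and tissue repair functions.

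The identity of the cells was checked on markers before any result. Total counts ran from 18092617 to 24639163 per library. The summed level of 14 macrophage markers was 14800 to 24800 CPM (read counts scaled to a common library size) untreated and 13600 to 21400 CPM with TGF-β1. The lowest library of each group was number 1, where Lyz2 was nearly absent. Lyz2 encodes lysozyme, an abundant macrophage product, and stood at 62, 9760 and 9680 CPM in untreated libraries 1 to 3 and at 37.6, 8120 and 8130 CPM with TGF-β1. The same libraries numbered 1 thus stood apart in both groups. The Lyz2 change was not called with these libraries in the fit (log2 −0.26, edgeR adjusted p = 0.91), and was called lower without them (edgeR adjusted p = 0.0044) or with library number as a block (edgeR adjusted p = 0.000306). The counts of all genes called and of gene list members called were also computed without the 3 floxed-labelled libraries numbered 1. That value is given where it differs by more than 1.5 times. Counts by fold size, interval, expression level, gene class, length and promoter come only from the fit of all 18 libraries. So do those set against the knockout label.

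Markers of other cells were also summed. The lymphoid markers, of which 3 of 8 passed the filter, added up to 130 to 190 CPM untreated and 39.4 to 47.4 CPM with TGF-β1, nearly all of it from the immunoglobulin heavy chain gene Ighm at 155, 190 and 128 CPM untreated and 39.4, 46.8 and 38.7 CPM with TGF-β1. Neutrophil markers summed to 414 to 430 CPM and 437 to 502 CPM, and the monocyte, fibroblast, and erythroid and megakaryocyte sums overlapped between the groups. Osteoclast markers summed to 64.4 to 78.3 CPM and 52.5 to 56.3 CPM, and dendritic cell markers to 4.94 to 5.51 CPM and 5.36 to 6.39 CPM. Mast cell, basophil and eosinophil markers were low, at 1.56 to 1.93 CPM and 2.21 to 3.49 CPM with no overlap, and 1 of their 2 tested members was called higher. Fcer1a of the mast cell list and Calcr of the osteoclast list were at 0 in all 6 libraries. What part these cells had in the results was not tested. Smad1, the gene that is floxed, was present at 30, 30.8 and 31.1 CPM untreated and at 26.3, 24.6 and 22.2 CPM with TGF-β1. Knockout-labelled libraries held Smad1 at 26.8, 26 and 26 CPM untreated and 20.4, 23.6 and 19.5 CPM with TGF-β1. Lyz2 there was at 15100, 17300 and 15700 CPM untreated and 13400, 13900 and 13500 CPM with TGF-β1. Every knockout-labelled library thus held more Lyz2 than any floxed-labelled one. Untreated Smad1 was slightly lower under the knockout label, and with TGF-β1 the ranges of the labels overlapped. Whether Smad1 was lost from the knockout-labelled cells, and whether the labels match the genotypes, was not tested.

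TGF-β1 changed about as many genes upward as downward, and most of them by little. Of the 14684 genes tested, 4841 (33.0%) were called at an edgeR adjusted p under 0.05, with 2491 higher (17.0%) and 2350 lower (16.0%). Counts in the gene lists below stand against these shares of all genes tested. The median log2 fold change over all genes tested was 0. Among the genes called higher, 758 (30.4%) rose by a log2 fold change under 0.32, and 620 (24.9%) from there to 1.5-fold. A further 413 rose 2-fold to 4-fold, 189 rose 4-fold to 16-fold and 30 rose at least 16-fold. Falls were smaller at the far end: 463 genes fell 2-fold to 4-fold, 101 fell 4-fold to 16-fold and 6 fell at least 16-fold. When the test asked for a change shown to exceed 1.5-fold, 1173 genes remained (7.99%), 651 higher and 522 lower.

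Among genes that missed the threshold, the precision differed widely. For 3762 of the genes not called, the 95% interval of the fold change lay within 0.32 of 0 on the log2 scale in both directions. For 2445 others it reached 2-fold, so a change of that size was not excluded. The remaining genes not called lay between these limits.

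The response was counted by expression level, in bins of the mean FPKM (fragments scaled to gene length and library size) over the 6 libraries. Under 1 FPKM, 17.8% of 3729 genes were called, and 71.7% of those called changed at least 2-fold. From 10 to 100 FPKM, 45.5% of 4068 genes were called, and 13.3% of those called changed at least 2-fold. At 100 FPKM and more, 39.8% of 437 genes were called and the median rise among them was 1.26-fold. Precision moved with the level: the median standard error of the log2 fold change was 0.395 under 1 FPKM and 0.0638 from 10 to 100 FPKM. Genes not called whose interval lay within 0.32 of 0 on the log2 scale made up 0.51% of the lowest bin and 50.1% of the highest.

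**Figure D1:**
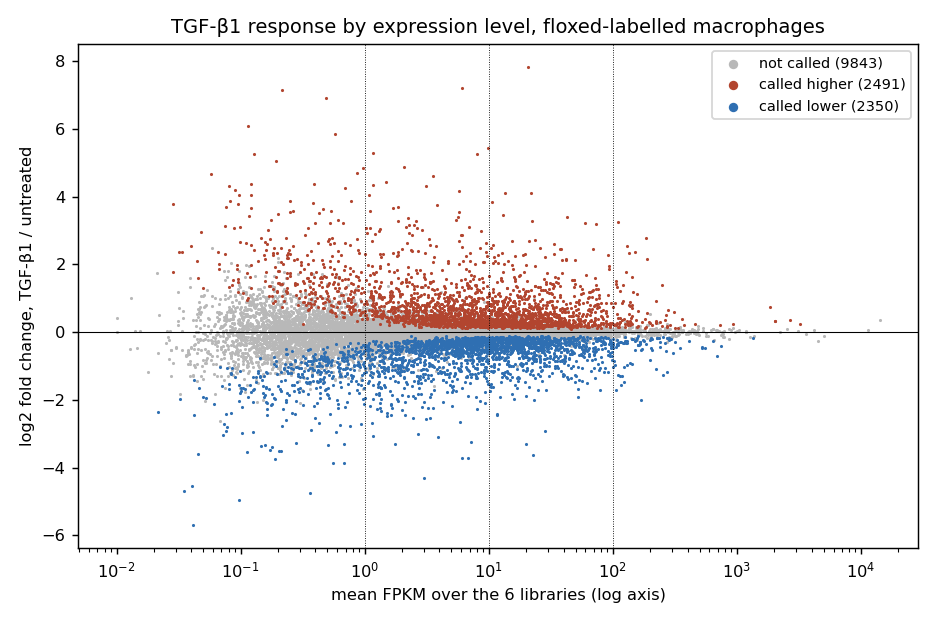
Each point is 1 of 14684 genes, placed by its mean FPKM over the 6 libraries (log axis) and its log2 fold change with TGF-β1, and coloured by its edgeR call. Dotted lines mark 1, 10 and 100 FPKM. The called genes (2491 higher, 2350 lower) lie near the zero line at high levels and spread widely at low levels.

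The small changes are shown by genes with tight replicates. Numa1, a spindle protein, was at 343, 350 and 351 CPM untreated and 477, 493 and 479 CPM with TGF-β1 (log2 0.47, SE 0.04). Cpt1a, which feeds fatty acids to mitochondrial oxidation, was at 229, 239 and 237 CPM and then 321, 346 and 326 CPM. Coro2a, a coronin of the actin cytoskeleton, fell from 140, 139 and 139 CPM to 98.6, 100 and 104 CPM (log2 −0.47, SE 0.05). In all 3 genes the libraries of the groups lay far apart relative to their spread. The libraries of the groups did not overlap in 43.9% of all genes tested.

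By annotated class, 36.7% of 12035 protein-coding genes were called, 24.9% of 422 lincRNAs and 7.71% of 454 processed pseudogenes. The median level was 26.8 CPM for protein-coding genes, 1.24 CPM for lincRNAs and 0.768 CPM for these pseudogenes, so class and depth moved together. The share called also grew with gene length, from 8.58% higher and 9.09% lower in the shortest of 5 equal length classes to 23.5% and 22.1% in the longest. Median levels in those classes were 1.64 and 48 CPM, and length and count depth cannot be told apart here.

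Genes of the TGF-β family and its regulators were called in 69.2% of 39 cases, against 33.0% of all genes tested. Of the 39, 18 rose and 9 fell, with a median log2 fold change of 0.19 and a summed level 1.63 times the untreated one. Beyond the largest feedback genes, the nuclear corepressors that bind Smads rose. Skil (ENSMUSG00000027660, mm10 chromosome 3, 31095058 to 31122577), which encodes SnoN, was at 164, 179 and 176 CPM untreated and 570, 597 and 584 CPM with TGF-β1 (log2 1.75, SE 0.08, edgeR adjusted p = 3.98e-12). Tgif1, another corepressor, went from 62.6, 56.8 and 58.5 CPM to 141, 134 and 141 CPM (log2 1.23). For both genes the 2 groups were clearly separate.

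Ubiquitin ligases that act on the receptors and Smads rose by less. Smurf1 rose by log2 0.88 (SE 0.07), Smurf2 by 0.73 (SE 0.06) and Nedd4l by 0.45 (SE 0.07). Among receptors and carriers, the type II receptor Tgfbr2 fell from 263, 304 and 266 CPM to 195, 229 and 217 CPM (log2 −0.38, edgeR adjusted p = 0.000198). Zfyve16, an endosomal protein that binds Smads, fell by 0.68 on the log2 scale (SE 0.05), and the latent TGF-β binding protein Ltbp3 rose by 0.35. The Smads that carry the signal differed little in RNA: Smad2 had a log2 fold change of −0.06, Smad4 of −0.04 and Smad3 of −0.21, and none was called (edgeR adjusted p = 0.459, 0.622 and 0.212). Smad3 was called lower with library number as a block (edgeR adjusted p = 0.0403). The decoy receptor Bambi fell (log2 −0.40), a call lost without the libraries numbered 1 (edgeR adjusted p = 0.057).

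Many cell surface lectins fell. Of 24 C-type lectins tested 16 fell and 0 rose, with a median log2 fold change of −0.93 against 0 over all genes, and 2 of the 24 had a fold change above 0. At an unadjusted p under 0.05 edgeR gave 17 lower and 0 higher, and DESeq2 and limma also called 0 higher. Their summed level was 3970, 4020 and 3840 CPM untreated and 2080, 2190 and 2200 CPM with TGF-β1, a ratio of 0.546. Clec10a (chromosome 11, 70156197 to 70170834), a lectin for galactose and N-acetylgalactosamine, was at 46.9, 76.1 and 50.7 CPM and fell to 8.74, 12.1 and 10.8 CPM (log2 −2.44, SE 0.18, edgeR adjusted p = 2.78e-09). Clec4a1, a member of the dendritic cell immunoreceptor group, was at 409, 454 and 406 CPM and then 92.6, 111 and 112 CPM (log2 −2.01, SE 0.17). Its relatives Clec4a3 and Clec4b1 fell by 1.70 and 2.00 on the log2 scale. No library of either group reached the other group's range in these genes.

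Receptors of the paired and Siglec type, which carry inhibitory or activating tails, fell in 18 of 42 cases and rose in 3, or in 5 with library number as a block. Pirb, an inhibitory receptor for MHC class I, was at 742, 764 and 753 CPM and then at 303, 302 and 308 CPM (log2 −1.31, SE 0.04). Cd300a, an inhibitory receptor for phospholipids of dying cells, fell by 1.29 on the log2 scale, and Lilrb4a by 1.18. The most abundant change was in Sirpa, the receptor for CD47, at 3100, 2970 and 3030 CPM and then 2160, 2100 and 2240 CPM (log2 −0.48). Cd300lf went the other way. This lipid-binding inhibitory receptor (chromosome 11, 115116214 to 115133992) was at 4.71, 4.86 and 4.31 CPM and rose to 58.1, 51.8 and 53.9 CPM (log2 3.56, SE 0.11, edgeR adjusted p = 1.03e-14).

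Costimulatory and checkpoint ligands and receptors fell in 12 of 22 cases (54.5%) and rose in 5 (22.7%), against 16.0% and 17.0% of all genes tested. The inhibitory receptor Cd200r1 fell from 131, 122 and 118 CPM to 56.1, 53.1 and 61.4 CPM (log2 −1.12, SE 0.06). Cd40, the receptor for a T cell help signal, fell by 1.71 on the log2 scale (SE 0.20), Cd83 by 1.13 and Vsir, which encodes the checkpoint protein VISTA, by 0.57. The rises were in Cd276 (B7-H3, log2 2.40), in Havcr2 and in Lgals9. Havcr2 encodes TIM-3 and stood at 41.9, 27.7 and 41.8 CPM untreated and 126, 123 and 127 CPM with TGF-β1 (log2 1.75, SE 0.15), and Lgals9 encodes galectin-9, which binds TIM-3 (log2 0.81, SE 0.09).

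G protein-coupled receptors with orphan or adhesion status fell in 17 of 45 cases (37.8%) and rose in 7 (15.6%). Over all genes tested 16.0% were lower and 17.0% higher, so the share that rose was near that of all genes. Gpr84 (chromosome 15, 103308235 to 103310612), a receptor activated by medium-chain fatty acids, rose from 6.64, 7.08 and 8.19 CPM to 60.9, 85.1 and 64.5 CPM (log2 3.27, SE 0.21). The adhesion receptor Adgrg6 fell by 2.11 on the log2 scale. Among purine, leukotriene and prostaglandin receptors and enzymes 9 of 24 fell and 4 rose, or 7 rose with the block. Cysltr1, a cysteinyl leukotriene receptor, fell from 60.2, 59 and 54 CPM to 22.9, 23.7 and 24.2 CPM (log2 −1.29). P2ry14, a receptor for UDP sugars, fell by 1.26 and the ATP-gated channel P2rx7 by 0.55 on the log2 scale. Nt5e, the ecto-enzyme CD73 that makes adenosine, rose from a low level of 0.728, 0.661 and 0.585 CPM to 6.85, 5.57 and 6.2 CPM, and the prostaglandin E2 receptor Ptger4 rose by log2 0.64. Ednrb, the type B endothelin receptor, was at 151, 166 and 152 CPM and fell to 14.4, 15.7 and 16.9 CPM (log2 −3.31, SE 0.09).

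Receptors for interleukins and growth factors of blood cells rose in 8 of 35 cases (22.9%) and fell in 9 (25.7%), against 17.0% and 16.0% of all genes tested. The shared chain of interleukin-6 type receptors, Il6st, fell from 298, 257 and 265 CPM to 112, 96.1 and 110 CPM (log2 −1.37, SE 0.11), and its partner Lifr by 1.82 on the log2 scale. The interferon-γ receptor chain Ifngr1 fell by 0.88. Il17ra, which receives interleukin-17, rose from 37, 44.2 and 47.4 CPM to 134, 136 and 131 CPM (log2 1.64, SE 0.10), and Csf2rb2, a chain of the interleukin-3 receptor, by log2 0.89. Csf2rb2 and Csf2rb are close copies, so their reads may be shared. Among 29 TNF superfamily genes 8 rose and 11 fell, or 4 and 7 without the libraries numbered 1 (5 higher without untreated library 1 alone). Their pair of TNF receptors parted, with Tnfrsf1a lower by 0.56 and Tnfrsf1b higher by 0.50 on the log2 scale.

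Integrins, which anchor cells to matrix, rose in 5 of 19 cases (26.3%) and fell in 4 (21.1%), against 17.0% and 16.0% of all genes tested. Their summed level was 1.55 times the untreated one. Their median log2 fold change was −0.09 and 8 of the 19 had a fold change above 0, so most members did not share that rise. Itga5, the fibronectin receptor chain, rose from 154, 150 and 159 CPM to 745, 775 and 728 CPM (log2 2.28, SE 0.10), and Itgav rose by log2 1.46. Itga4, a chain for vascular and fibronectin ligands, fell from 390, 411 and 369 CPM to 171, 192 and 194 CPM (log2 −1.07). In the guidance family, the neuropilin Nrp1 fell from 379, 392 and 368 CPM to 189, 189 and 189 CPM (log2 −1.01, SE 0.05), while 7 of 20 members rose and 5 fell.

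Notch and Wnt are developmental pathways that work between cells. In the Notch list 11 of 21 genes rose and 5 fell. Notch1 rose from 59.7, 65.3 and 62.9 CPM to 118, 120 and 114 CPM (log2 0.91) while its relative Notch2 fell from 340, 394 and 348 CPM to 196, 202 and 188 CPM (log2 −0.89). Rbpj, the DNA-binding partner of both receptors, fell by 0.94 on the log2 scale and the coactivator Maml3 rose by log2 1.54. The summed level of the list was 1220 CPM in both groups. In the Wnt list 5 of 21 genes rose (23.8%) and 4 fell (19.0%), near the 17.0% and 16.0% of all genes tested. The receptor Fzd7 rose from 18.8, 18.6 and 19.1 CPM to 84.3, 97.3 and 89.5 CPM (log2 2.26, SE 0.08), and so did Znrf3, a ligase that removes Frizzled receptors from the surface (log2 2.45, SE 0.12). Ctnnb1, which encodes β-catenin, rose by log2 0.85, and the coreceptor Lrp6 fell by 0.51 on that scale.

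Regulators of small GTPases changed in both directions. Arhgef40, an exchange factor for RhoA, rose from 5.61, 5.14 and 4.73 CPM to 46.7, 47.8 and 45.7 CPM (log2 3.17, SE 0.14). Arhgap27 and Arhgap22 rose by log2 1.21 and 1.48. Arhgap18, a RhoA-inactivating protein, fell by 1.16 and Arhgef6, an exchange factor for Rac and Cdc42, by 0.76 on the log2 scale.

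Rnd3 (chromosome 2, 51130438 to 51149111), an atypical small GTPase that opposes RhoA signalling, was at 51.7, 48.9 and 50.9 CPM and fell to 4.18, 3.74 and 3.64 CPM (log2 −3.72, SE 0.12, edgeR adjusted p = 1.7e-14). Ras-family regulators fell in 17 of 37 cases and rose in 10. Rassf4, an abundant Ras-association protein, fell from 1580, 1780 and 1490 CPM to 497, 556 and 573 CPM (log2 −1.58), and Rgl1, an exchange factor for Ral, by 2.66 on the log2 scale. Rap2a rose by log2 1.55. Gas7, a membrane-bending protein of the actin cytoskeleton, fell from 587, 633 and 501 CPM to 79.9, 78.3 and 68.7 CPM (log2 −2.92). For these genes no library crossed into the other group's range.

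Genes of the actin cytoskeleton rose in 23 of 80 cases and fell in 16. Myh9, the heavy chain of non-muscle myosin, rose from 785, 822 and 809 CPM to 2040, 2040 and 1970 CPM (log2 1.33, SE 0.06), and the formin Fmnl3, which elongates filaments, by log2 1.59. Tns1, a tensin that links integrins to actin, fell by 1.20 on the log2 scale. Among 65 tubulin, kinesin and microtubule genes 11 rose (16.9%) and 14 fell (21.5%), near the 17.0% and 16.0% of all genes tested. The kinesin Kif21b rose from 94, 95.6 and 99.5 CPM to 301, 298 and 291 CPM (log2 1.62, SE 0.04), and the tubulin Tubb2a fell by 1.16 on the log2 scale.

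Inflammasome genes rose in 10 of 25 cases (40.0%) and fell in 7 (28.0%), with 6 rises when TGF-β1 library 2 was left out. Over all genes tested 17.0% rose and 16.0% fell. The sensors Naip2 and Naip5, which bind bacterial proteins, rose, Naip2 from 152, 130 and 140 CPM to 463, 459 and 438 CPM (log2 1.69, SE 0.06). Naip genes are near-identical copies, so their split is uncertain. The proteases fell, Casp1 from 154, 147 and 149 CPM to 87.8, 88.7 and 93.9 CPM (log2 −0.73, SE 0.05) and Casp4 by 1.43 on the log2 scale, as did the peptidoglycan sensor Nod1 by 2.07.

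In the MAP kinase cascade 16 of 40 genes rose (40.0%) and 12 fell (30.0%), against 17.0% and 16.0% of all genes tested. The p38 branch held members of both kinds. Map2k3, the kinase that activates p38, rose from 60.5, 57 and 63.3 CPM to 132, 140 and 135 CPM (log2 1.17). Mapk14, p38α itself, fell from 322, 378 and 349 CPM to 185, 202 and 200 CPM (log2 −0.84), and Mapkapk2, its substrate kinase, from 457, 529 and 438 CPM to 194, 209 and 195 CPM (log2 −1.25). Upstream, Map3k9 rose by log2 1.61. Cyclic nucleotide enzymes rose in 10 of 26 cases and fell in 7. The cyclic AMP hydrolase Pde3b rose from 12.2, 12.6 and 13.3 CPM to 53.2, 51.5 and 54.2 CPM (log2 2.06), Pde7b fell by 1.61 on the log2 scale, and Adcy7, which makes cyclic AMP, rose by 0.85.

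**Figure D2:**
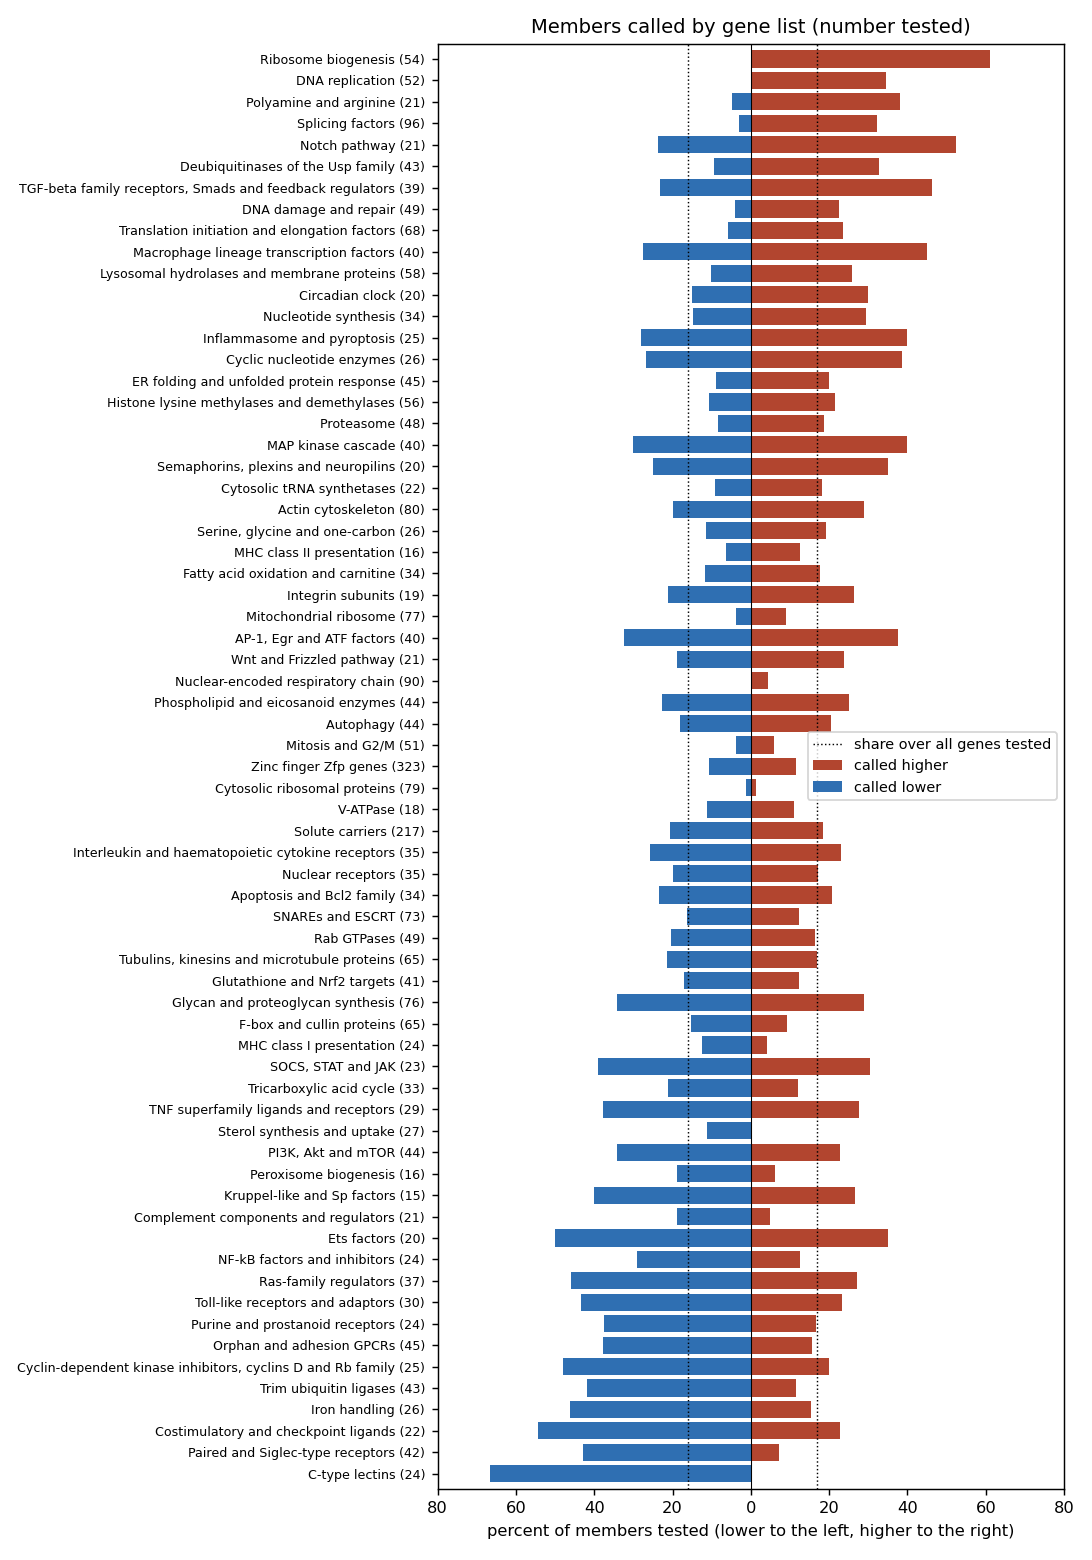
Bars give, for gene lists with at least 15 members tested, the percent of members called higher (to the right) and lower (to the left), ordered by the difference; the number tested is in parentheses. Dotted lines mark the shares over all genes tested, 17.0% higher and 16.0% lower. Ribosome biogenesis lies at the top with 61.1% higher and 0% lower, and C-type lectins at the bottom with 66.7% lower and 0% higher.

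Transcription factors of the macrophage lineage rose in 18 of 40 cases (45.0%) and fell in 11 (27.5%), with a median log2 fold change of 0.22. Cebpa (chromosome 7, 35119293 to 35121928), a factor of myeloid differentiation, rose from 169, 184 and 203 CPM to 551, 611 and 555 CPM (log2 1.63, SE 0.07). Mef2a rose from 254, 272 and 256 CPM to 680, 732 and 695 CPM (log2 1.43), and Bhlhe40, a repressor also counted among clock genes, from 2.96, 2.5 and 3.78 CPM to 26.6, 24.5 and 22.9 CPM (log2 3.01). Maf, Pparg, Spic and Batf were among those that fell. Factors tied to resident or lipid-handling macrophages were not counted as a set. Maf (chromosome 8, 115682942 to 115707794), a factor of resident macrophage identity, fell from 626, 720 and 659 CPM to 177, 213 and 229 CPM (log2 −1.69, SE 0.09). Pparg, a nuclear receptor for lipids, fell from 52.5, 42.9 and 46.1 CPM to 14.2, 13.5 and 14.5 CPM (log2 −1.75). Spic, a factor of iron-recycling macrophages, fell by 2.13 and Batf by 2.18 on the log2 scale. Of 20 Ets factors 10 fell and 7 rose, among which Elk3 rose by log2 1.33. The large family of Zfp zinc finger genes was called in 22.3% of 323 cases, below the 33.0% of all genes tested, with 37 higher and 35 lower. The share called depends on expression level, at 17.8% under 1 FPKM and 45.5% from 10 to 100 FPKM. Level was not matched in this comparison.

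**Figure D3:**
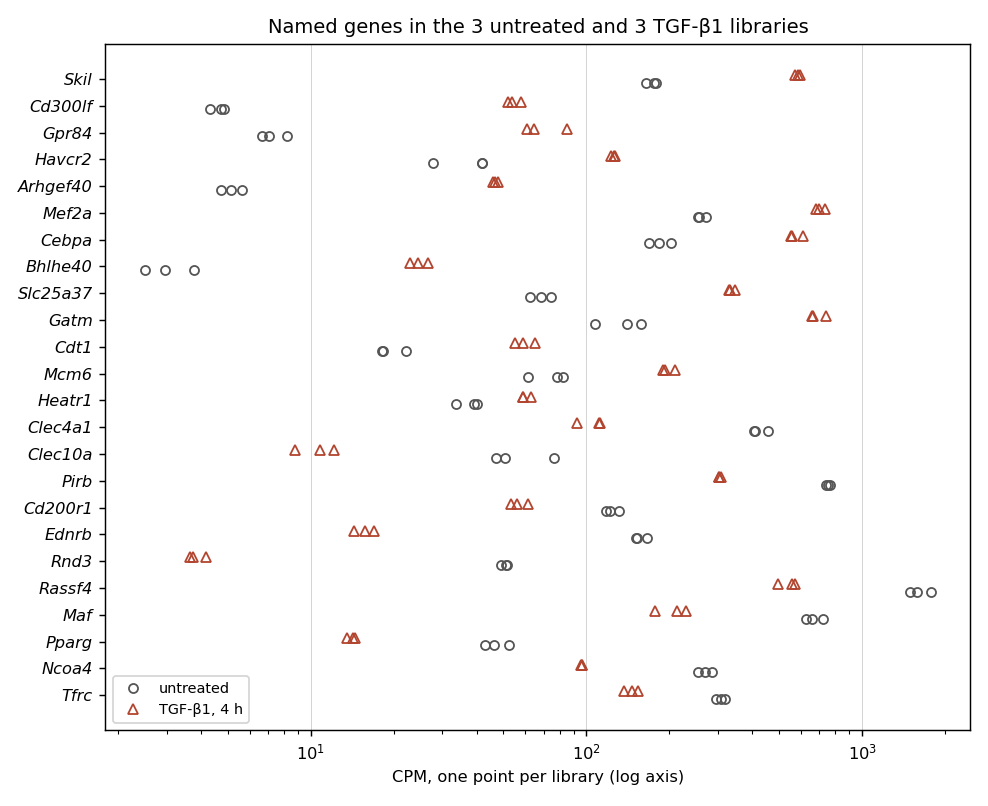
Each symbol is the CPM of 1 gene in 1 library (log axis), with circles for the 3 untreated libraries and triangles for the 3 TGF-β1 libraries. In all 24 genes, most of them picked for low adjusted p, the triangles lie to one side of the circles, as they do in 43.9% of all genes tested. Rnd3 moves from 48.9 to 51.7 CPM down to 3.64 to 4.18 CPM, and Cd300lf from 4.31 to 4.86 CPM up to 51.8 to 58.1 CPM.

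Genes that build ribosomes rose by small amounts and in 1 direction. Of 54 ribosome biogenesis genes 33 rose and 0 fell (61.1% higher against 17.0% of all genes), with a median log2 fold change of 0.28. Unadjusted, edgeR gave 37 higher and 0 lower at p under 0.05, and DESeq2 called 32 higher and 0 lower. Without the floxed-labelled libraries numbered 1 the count was 21 higher and 0 lower. Heatr1, part of the complex that processes the small subunit's RNA, was at 40, 33.6 and 39 CPM and then 58.8, 59.1 and 63 CPM (log2 0.68, SE 0.07). Gnl2, a GTPase of large subunit assembly, and Nop56, a core protein of box C/D particles that methylate ribosomal RNA, each rose by log2 0.58.

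Genes for the proteins of the finished ribosome stayed within narrow bounds. Of 79 cytosolic ribosomal protein genes 1 rose, Rpl3, and 1 fell, Rps27l, and the Rps27l call was lost without the libraries numbered 1 (edgeR adjusted p = 0.218). The rise was lost when untreated library 3, TGF-β1 library 1 or TGF-β1 library 2 was left out, and the fall without untreated library 1 or TGF-β1 library 1. For 71 of the 79, all of them not called, the 95% interval of the fold change lay within 0.32 of 0 on the log2 scale. The list's summed level was 31700 ± 516 CPM untreated and 32500 ± 976 CPM with TGF-β1 (SD, n = 3), and these ranges overlapped. The same bound held for 72 of 90 nuclear genes of the respiratory chain, of which 4 rose and 0 fell by edgeR, and for 7 of 13 transcripts of the mitochondrial genome. Of these 13 mitochondrial transcripts 0 were called by edgeR, 1 was called higher with library number as a block and 2 were when untreated library 1 was left out. In the respiratory chain 1 gene was called lower with the block, and also without untreated library 2 or TGF-β1 library 2. DESeq2 and limma called 0 of the 13 and 0 respiratory chain genes lower, and the unadjusted edgeR p was under 0.05 for 1 of the 13 and for 1 respiratory chain gene that was lower.

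Splicing factors rose in 31 of 96 cases and fell in 3 (5 with the block, 1 without the libraries numbered 1), at a median log2 fold change of 0.09. Hnrnpk, an RNA-binding protein, rose from 428, 397 and 406 CPM to 519, 506 and 536 CPM (log2 0.34, SE 0.04), Sf3b3 of the U2 particle by log2 0.51 and Prpf39 of the U1 particle by 0.46. Translation factors rose in 16 of 68 cases (23.5%) and fell in 4 (5.88%), against 17.0% and 16.0% of all genes tested. Rises numbered 10 when TGF-β1 library 3 was left out.

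DNA replication genes were called higher and not lower, but their number rested on single libraries. Of 52 DNA replication genes 18 rose and 0 fell, with a median log2 fold change of 0.31 and summed levels of 1130 ± 120 and 1540 ± 105 CPM (SD, n = 3). Unadjusted, edgeR gave 25 higher and 2 lower at p under 0.05, and DESeq2 called 19 higher and 0 lower. The edgeR count was 28 higher and 1 lower with library number as a block and 10 higher without the libraries numbered 1. It was 8 without untreated library 2, 10 without TGF-β1 library 1 and 8 without TGF-β1 library 3. Cdt1 (chromosome 8, 122568015 to 122573554), which loads the replicative helicase, was at 22.2, 18.1 and 18.3 CPM and rose to 65.2, 58.9 and 54.9 CPM (log2 1.61, SE 0.09). The nuclease and helicase Dna2 rose by log2 0.97. Among 51 mitosis genes 3 rose and 2 fell, or 7 and 5 with the block, and 2 and 1 without the libraries numbered 1. The 9.8% called with all libraries and no block lay below the 33.0% of all genes tested. Rises numbered 0 when untreated library 2 or TGF-β1 library 3 was left out and 1 without TGF-β1 library 1, and falls were 1 to 3 over the libraries left out. The list's summed level of 1620 ± 217 CPM overlapped with 1670 ± 164 CPM. Replication and mitosis lists were not tested against each other.

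The list of cyclin-dependent kinase inhibitors, D cyclins and their kinases, the Rb family and p53-linked genes had 12 of 25 members lower and 5 higher. Its members both drive and brake the cell cycle. Cdk6, a kinase of the G1 phase, fell from 141 to 71 CPM (log2 −0.99), Rbl2, a relative of the retinoblastoma protein, from 102 to 62.2 CPM, and Sesn1, a p53 target, from 533 to 263 CPM. Gadd45a and Gadd45g, which are induced by stress, rose by log2 2.08 and 2.34. DNA repair genes rose in 11 of 49 cases (22.4%) and fell in 2 (4.08%), against 17.0% and 16.0% of all genes tested. With the block 18 of this list rose. Parp1, a sensor of strand breaks, rose by log2 0.69 and Chek2, a checkpoint kinase, by 0.86.

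Metabolic genes gave both strong single changes and flat lists. In the list of polyamine and arginine genes 8 of 21 rose and 1 fell, with 4 falls under the block or total count scaling and 0 without the libraries numbered 1. Gatm, which makes the precursor of creatine from arginine, rose from 107, 158 and 140 CPM to 657, 740 and 662 CPM (log2 2.34, SE 0.16). The arginine transporter Slc7a2 rose from 0.642, 0.755 and 0.479 CPM to 9.24, 7.39 and 7.04 CPM, and Odc1, the first enzyme of polyamine synthesis, by log2 0.92. Nucleotide synthesis genes rose in 10 of 34 cases (29.4%) and fell in 5 (14.7%), against 17.0% and 16.0% of all genes tested. Umps, which completes pyrimidine synthesis, rose by log2 1.37 and Adssl1 of the AMP branch by 1.27. Samhd1, which destroys deoxynucleotides, fell by 0.83 on the log2 scale. Sterol genes were called in 3 of 27 cases, all lower, or 11.1% against 33.0% of all genes tested. There were 1 to 8 lower when single libraries were left out and 2 higher and 10 lower with the block. Glutathione and Nrf2 target genes gave 5 higher and 7 lower of 41, or 16 lower with the block, and their share called of 29.3% was below the 33.0% of all genes tested. Gclm, a subunit of the glutathione-making enzyme, rose by log2 1.27.

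Iron handling genes fell in 12 of 26 cases (46.2%) and rose in 4 (15.4%), or 8 with the block. Over all genes tested 16.0% fell and 17.0% rose, so without the block the share that rose was near that of all genes. Slc25a37 (chromosome 14, 69241848 to 69285112), the mitochondrial iron importer mitoferrin, rose from 62.6, 74.1 and 68.7 CPM to 333, 347 and 329 CPM (log2 2.30, SE 0.07, edgeR adjusted p = 1.03e-14). Ncoa4, the receptor that delivers ferritin for breakdown, fell from 285, 269 and 253 CPM to 95.8, 96.6 and 96.1 CPM (log2 −1.49). The transferrin receptor Tfrc fell from 309, 318 and 294 CPM to 146, 154 and 137 CPM (log2 −1.07). All 3 genes had groups that did not overlap, as did 43.9% of the genes tested.

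Glycan and proteoglycan synthesis genes were called in 63.2% of 76 cases, 22 higher and 26 lower, against 33.0% of all genes tested. Extl3 (chromosome 14, 65052060 to 65149855), which starts heparan sulfate chains, rose from 67.1, 69.5 and 80.7 CPM to 380, 408 and 396 CPM (log2 2.45, SE 0.08). Galnt7, which adds sugars to mucin-type chains, rose by log2 1.57 and the galactosyltransferase B4galt1 by 1.28. Its relative B4galt6, which makes lactosylceramide, fell by 1.04 and the chondroitin sulfotransferase Chst7 by 2.24 on the log2 scale.

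Lysosomal genes rose in 15 of 58 cases (25.9%) and fell in 6 (10.3%), or 13 with the block. Over all genes tested 17.0% rose and 16.0% fell. The list had a median log2 fold change of −0.01. Scarb2, a lysosomal membrane protein, rose from 225, 233 and 206 CPM to 482, 501 and 473 CPM (log2 1.13). Lipa, the acid lipase, fell from 2620, 2480 and 2550 CPM to 1890, 1850 and 1990 CPM (log2 −0.41), and the lysosomal channel Mcoln2 by 1.62 on the log2 scale.

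Among families of protein turnover, Trim ubiquitin ligases fell in 18 of 43 cases (41.9%) and rose in 5 (11.6%). Deubiquitinases of the Usp family rose in 14 of 43 cases (32.6%) and fell in 4 (9.3%). F-box and cullin genes rose in 6 of 65 (9.23%) and fell in 10 (15.4%), or 6 without TGF-β1 library 1. Over all genes tested 17.0% were higher and 16.0% lower. The 24.6% of F-box and cullin genes called lay below the 33.0% of all genes tested. Differences between these lists were not tested. Trim21, a cytosolic antibody receptor, fell from 69, 84.5 and 68.6 CPM to 30.2, 36 and 30.4 CPM (log2 −1.20), and the corepressor Trim28 rose by log2 0.42. Usp2 rose from 4.45, 4.67 and 5.32 CPM to 48.8, 49.2 and 45.1 CPM (log2 3.31, SE 0.13).

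Because FPKM is scaled to gene length, its sum gives the share of the transcript pool that each set of genes holds. The genes called higher held 16.2 ± 0.295% of the summed FPKM untreated and 22.7 ± 0.435% with TGF-β1 (SD, n = 3). Those called lower held 18.5 ± 0.328% and 12.7 ± 0.124%. These shares follow from how the genes were chosen and are given as a description. The 632 genes that rose at least 2-fold went from 1.24 ± 0.0479% to 3.76 ± 0.0943%, which is 2.52 of the 6.49 percentage points gained by all genes called higher.

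**Figure D4:**
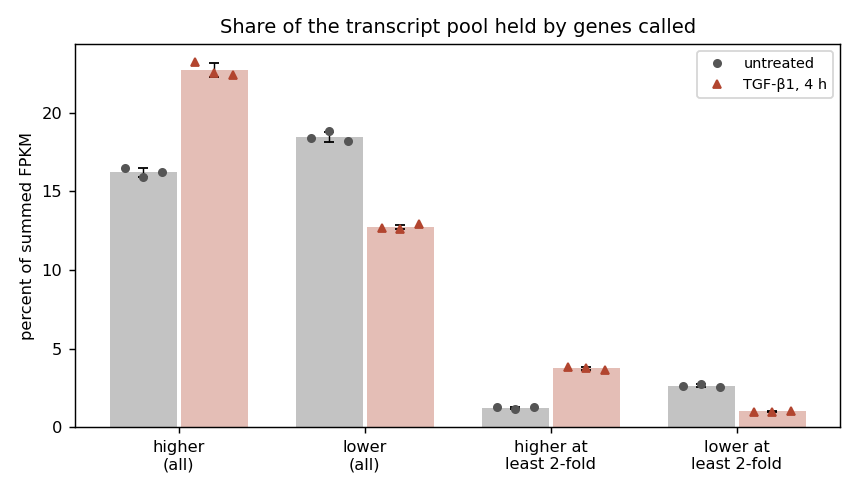
Bars give the mean percent of summed FPKM held by each set of called genes, with error bars of 1 SD and a point per library (3 untreated, 3 TGF-β1). All genes called higher move from 16.2% to 22.7%, and those at least 2-fold higher from 1.24% to 3.76%.

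The largest gain, with FPKM rescaled to a common total (TPM), was in Ctsd, the lysosomal protease cathepsin D. It stood at 4797, 4223 and 4515 TPM untreated and 7847, 7170 and 7086 TPM with TGF-β1 (log2 0.75 in the count fit). Apoe, the lipid carrier, gained 1920 TPM at log2 0.36, and Ctss, cathepsin S, 1290 TPM at log2 0.33. Tmsb4x, an actin-binding peptide, gained 1520 TPM, a call lost without the libraries numbered 1 (edgeR adjusted p = 0.0554). The largest loss was in Selenop, a selenium transport protein, at 2547, 3189 and 2586 TPM untreated and 1556, 1763 and 1625 TPM with TGF-β1. Except for Tmsb4x, these genes had separate groups.

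Promoter sequences were examined for 4 short motifs on both strands: CAGAC, the Smad-binding element, GGCGCC, a GC-rich Smad site, TGANTCA, the AP-1 site, and TATAAA, the TATA box. RefSeq windows of 300 bases around the start site (GRCm38.p6) matched 10155 of the 14684 genes tested, and 1 window per gene was counted. CAGAC was present in 48.8% of genes called higher, 46.5% of genes called lower and 47.5% of genes not called, against 49.7% of all 27025 genes with a window. For rises of 1 to 1.5-fold, 1.5 to 2-fold and 2 to 4-fold the share was 48.4%, 47.8% and 44.4%. For falls of those sizes it was 46.4%, 46.4% and 47.9%. Among the 151 genes that rose at least 4-fold the share was 62.3%, and among the 59 that fell at least 4-fold it was 40.7%. Counting every window of a gene gave 62.7% and 46.1%. GGCGCC was present in 20.4% of the genes tested with a window. It was in 17.9% of those at least 4-fold higher and 5.08% of those at least 4-fold lower. Among all genes called higher 24.6% held it, and among all called lower 17.6%. Windows of these higher and lower genes had a median GC content of 62.5% and 60%. TGANTCA was present in 4.76% and 6.48%, and TATAAA in 7.33% and 7.96%. These shares are descriptions with no test, and a match is not a bound site.

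Windows of 5 genes are printed to show both ends of that description, with every CAGAC (read as GTCTG on the other strand), GGCGCC and TGANTCA in capitals. They include the 4 genes with most CAGAC matches among those called at least 4-fold higher and at 1 FPKM or more. Genes on a chromosome left out of the choice, and genes with predicted-gene names, were not considered. Ties in the number of matches went to the lower edgeR adjusted p. Spsb1 was added as a strong riser with no match to these 3 motifs. All 5 genes were chosen after their values were seen. Ctla2a (chr13:60936576-60936875, minus strand) encodes a cysteine protease inhibitor with near-identical relatives, so its reads may be shared, and rose from 3.25, 2.97 and 5.26 CPM to 19.3, 22.9 and 23.3 CPM. Cspg4 (chr9:56864854-56865153, plus strand), the proteoglycan NG2, rose from 2.18, 0.849 and 1.81 CPM to 57.4, 41.9 and 44.4 CPM. Kcna3 (chr3:107035912-107036211, plus strand), a voltage-gated potassium channel, rose from 4.71, 5.47 and 4.89 CPM to 29.8, 34.7 and 29.5 CPM. Each of these groups was separate from the other, and the windows hold 4, 3 and 3 CAGAC matches. Phyhd1 (chr2:30265953-30266252, plus strand), a dioxygenase, holds 3 and rose by log2 2.28, and Spsb1 (chr4:149954957-149955256, minus strand) holds 0 and rose by log2 5.42.
Ctla2a: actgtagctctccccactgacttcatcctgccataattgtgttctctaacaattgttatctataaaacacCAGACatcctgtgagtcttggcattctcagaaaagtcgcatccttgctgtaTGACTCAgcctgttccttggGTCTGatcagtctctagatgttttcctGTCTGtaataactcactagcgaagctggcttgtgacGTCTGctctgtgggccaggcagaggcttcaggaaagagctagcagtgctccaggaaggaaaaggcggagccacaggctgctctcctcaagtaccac
Cspg4: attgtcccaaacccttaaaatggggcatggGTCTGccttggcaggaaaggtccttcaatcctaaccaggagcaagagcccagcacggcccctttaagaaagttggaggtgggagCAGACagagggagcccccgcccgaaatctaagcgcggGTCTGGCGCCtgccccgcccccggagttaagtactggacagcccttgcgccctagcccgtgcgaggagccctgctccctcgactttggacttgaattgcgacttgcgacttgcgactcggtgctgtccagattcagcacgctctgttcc
Kcna3: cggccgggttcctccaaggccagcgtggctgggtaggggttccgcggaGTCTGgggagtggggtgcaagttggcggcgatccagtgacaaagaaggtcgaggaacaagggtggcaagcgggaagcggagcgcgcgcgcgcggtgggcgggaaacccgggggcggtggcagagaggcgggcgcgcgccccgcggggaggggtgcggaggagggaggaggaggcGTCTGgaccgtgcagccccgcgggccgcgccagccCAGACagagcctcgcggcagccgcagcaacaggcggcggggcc
Phyhd1: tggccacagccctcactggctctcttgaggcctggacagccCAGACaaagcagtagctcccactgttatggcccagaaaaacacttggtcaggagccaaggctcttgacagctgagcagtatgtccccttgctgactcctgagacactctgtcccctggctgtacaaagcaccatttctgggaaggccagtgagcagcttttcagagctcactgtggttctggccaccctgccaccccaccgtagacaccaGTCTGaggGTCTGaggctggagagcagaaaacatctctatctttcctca
Spsb1: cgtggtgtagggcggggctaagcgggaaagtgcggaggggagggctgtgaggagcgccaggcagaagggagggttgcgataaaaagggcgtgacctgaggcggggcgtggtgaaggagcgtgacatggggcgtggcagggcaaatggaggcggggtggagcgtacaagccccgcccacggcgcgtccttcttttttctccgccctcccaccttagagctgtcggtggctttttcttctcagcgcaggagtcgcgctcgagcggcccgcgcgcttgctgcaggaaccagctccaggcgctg

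The same ligand was given to knockout-labelled cells, whose 6 libraries are not shared with the floxed-labelled comparison. There 5084 genes were called (34.6%). Among genes called higher under the floxed label, the knockout-labelled fold change had the same sign in 98.1% to 100% of every class of fold size. It was also called in 72.6% of the 758 genes that rose least (log2 under 0.32) and in 88.9% of those that rose 4-fold to 16-fold. For falls the shares called were 72.1% of the 634 genes that fell least and 91.1% of 101 genes at 4-fold to 16-fold. Of the 6 genes that fell at least 16-fold, 4 were called (66.7%). The median log2 fold change of these 6 was −4.72 under the floxed label and −2.83 under the knockout label. They were picked on the floxed-labelled values. Their median level was 0.0694 FPKM, and precision was lowest under 1 FPKM. Of the 4841 genes, 0 were called by edgeR in the opposite direction, and 1, Gm42908, named after its values were seen, had the opposite sign at an unadjusted p under 0.05.

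The median log2 fold change of the genes that rose 2-fold to 4-fold was 1.34 in floxed-labelled and 1.23 in knockout-labelled cells, and that of the genes that fell 2-fold to 4-fold was −1.29 and −1.27. These classes were cut on the floxed-labelled values. C-type lectins gave 0 higher and 17 lower in knockout-labelled cells, ribosome biogenesis genes 33 higher and 0 lower, and paired and Siglec-type receptors 3 higher and 15 lower. Cytosolic ribosomal proteins gave 18 higher and 1 lower there, against 1 and 1 in floxed-labelled cells. The test of the difference between labels called 1 of 14684 genes (0.00681%), Id2, and thus no member of these lists. A missed threshold does not show that their responses were equal.

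**Figure D5:**
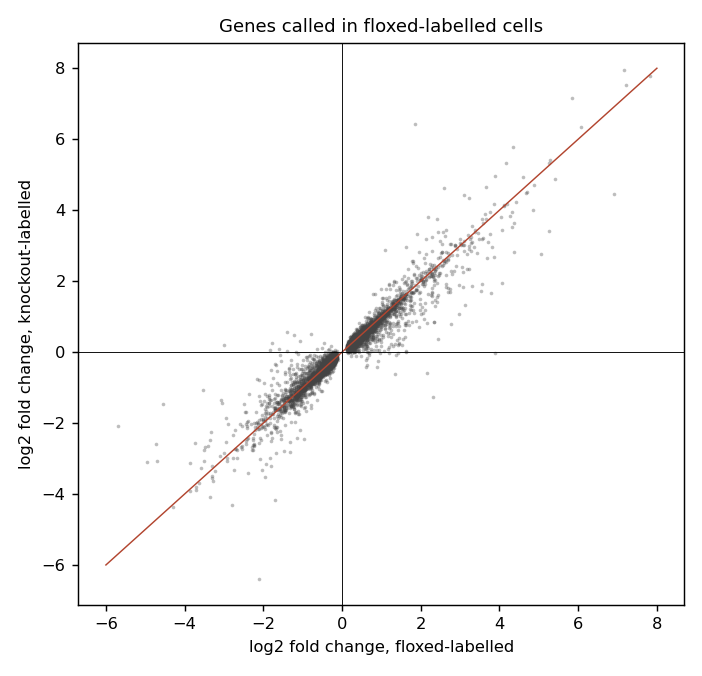
Each point is 1 of the 4841 genes called under the floxed label, with its log2 fold change there on the horizontal axis and in knockout-labelled cells on the vertical axis; the line marks equal values. Points lie along the line, and 0 of them were called by edgeR with opposite signs.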

How the data were processed

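Polyadenylated RNA was sequenced as 150 bp paired reads. Per the submitters' processing notes, TopHat2 2.0.9, HTSeq 0.6.1 and Cufflinks 2.1.1 were used with genome build mm10 (GRCm38.p6). The notes do not say whether counting used strand, so overlapping antisense genes are uncertain. The deposited count table holds the authors' read counts per gene, and the deposited FPKM table the authors' values scaled to gene length. Gene names, positions and lengths came from the deposited annotation table, whose 78 columns with per-sample names were not used.

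All 18 libraries were fitted together with edgeR 4.0.16 under R 4.3.3 (filterByExpr over the 6 groups, TMM factors, quasi-likelihood test, 1 mean per group, two-sided). A gene was called at a Benjamini-Hochberg adjusted p under 0.05 over all 14684 genes tested. Changes beyond 1.5-fold were tested with glmTreat. CPM use TMM-scaled totals of the tested genes. Summed marker levels include genes under the filter and use plain library totals. TMM factors ran from 0.978 to 1.02 and the biological coefficient of variation was 8.86%. No library repeated another of its group: a chi-square of their counts, divided by its degrees of freedom, was 5.635 to 25.702. The fit was tested on simulated data.

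Library numbers pair the samples: deviations from the group means of untreated and TGF-β1 libraries with the same number correlated at r = 0.66, 0.59 and 0.406 over 8601 genes, and with other numbers at −0.524 to −0.027. The pairing comes from the data, since the labels give only the numbers.

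Lists are described by counts and medians with no set test. The 73 gene lists, the marker lists and the members were chosen with earlier results of these data known. Genes were named by a rule: up to 3 called members per list and direction by lowest adjusted p (the most abundant member where none was called), the 4 largest changes per FPKM bin and direction, the 8 largest gains and losses in TPM, the 4 lowest p per direction under a log2 of 0.5, and the TGF-β list, Smad1 and Lyz2. Not every gene so taken is printed. Some withheld items are not reported here. Ctla2a, Cspg4, Kcna3 and Phyhd1 lie outside the rule and were chosen after their values were seen, as was the count of 1 promoter window per gene. Alternatives were other scalings and filters, DESeq2 1.42.0, limma 3.58.1 on log2(FPKM + 1) or log2(FPKM + 0.1), the replicate block, and libraries left out.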

Additional observations from a re-analysis of the deposited data

Results flagged for a closer look

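Id2, an inhibitor of DNA-binding factors, was the 1 gene whose response to TGF-β1 differed between the genotype labels in the test of the difference itself. It was at 22.2, 19.7 and 20.9 CPM untreated and 61.8, 70.6 and 68.3 CPM with TGF-β1 in floxed-labelled cells. In knockout-labelled cells it was at 18.6, 17.6 and 16 CPM untreated and 91.3, 87.1 and 84.2 CPM with TGF-β1. The log2 response was thus smaller in floxed-labelled cells, with a difference of −0.65 (SE 0.10, edgeR adjusted p = 0.0433). The test of the difference was run only in the edgeR fit of all 18 libraries without the block. Whether this call holds under the alternatives was not tested.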

How the results depend on the processing

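The counts of genes called higher, lower and beyond 1.5-fold stayed within 1.5 times their values under all alternatives run, with 3922 (15 libraries) to 5805 genes called in all. With the replicate block within genotype label 2946 genes were higher and 2859 lower, and it contained 4819 of the 4841 calls in the same direction. Leaving out 1 library gave 2138 to 2314 higher and 2062 to 2219 lower. Total count scaling gave 2208 higher and 2662 lower, and moved the median of all genes to −0.03 (log2). No named gene that was called reversed its direction. The summed FPKM shares moved with the denominator: genes called higher gained 6.49 points of FPKM and 8.96 points of read counts. Restricting the pool to protein-coding genes, chosen after seeing the data, gave 7.07 points. Precision was lower at low counts: the median standard error (log2) was 0.477 under 1 CPM and 0.0568 at 100 CPM and more.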
